A study of Mus musculus with 18 samples.

Results

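Ribosome biogenesis genes encode the machinery that transcribes the ribosomal RNA genes and builds both ribosomal subunits from the transcript. A set of 41 of them was followed here in NIH-3T3 cells, an established line of mouse embryonic fibroblasts, after inhibition of the proteasome. The 41 were chosen by symbol from the textbook membership of the pathway, with earlier results of these data known. All 41 were found among the 23420 rows of the deposited count table and among the 11762 genes that passed the expression filter. They comprised 5 genes of RNA polymerase I (Pol I) transcription, 5 of multifunctional nucleolar proteins, 3 of the box C/D and 4 of the box H/ACA small nucleolar ribonucleoproteins (snoRNPs), 12 of the small subunit processome and 40S assembly, and 12 of 60S assembly.

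RNA-seq had been performed on 18 samples, 3 replicates in each of 6 groups, to ask how the loss of the transcription factor Nrf1 (listed as Nfe2l1) alters the response to carfilzomib (CFZ), an irreversible proteasome inhibitor. Wild-type (WT) cells and an Nrf1 knockout line (Nrf1-KO) each received either the vehicle DMSO or 200 nM CFZ for 6 h or 24 h. The knockout line had been made in earlier work, and how many clones stand behind it was not given in the sources used here, nor was the duration of the DMSO treatment. Differences between the genotypes therefore hold for these 2 lines. All groups were immortalized cells kept in medium with fetal bovine serum.

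Pol I transcribes a single precursor of the large ribosomal RNAs in the nucleolus, after the upstream binding factor UBTF has opened the ribosomal DNA and recruited the polymerase with its partners. The small subunit processome folds and cleaves that precursor, box C/D snoRNPs methylate it, box H/ACA snoRNPs convert chosen uridines to pseudouridine, and separate sets of factors then mature and export the 40S and 60S subunits. The process consumes much of a growing cell's transcription, and orphan ribosomal proteins that are made in excess are normally removed by the proteasome.

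Total counts ran from 8333148 to 23917081 per library, with a median of 14419832. Each of the 18 libraries lay closest to a library of its own group. Nfe2l1 stood at 456.9, 437.3 and 448.8 CPM (the reads of a gene scaled to a common library size, with edgeR's TMM factors) in WT DMSO and at 174.3, 184.6 and 181.3 CPM in Nrf1-KO DMSO, and within each treatment the highest Nrf1-KO library was below the lowest WT library. The fibroblast markers (7 genes, Vim and Col1a1 among them) were all detected, and Epcam, an epithelial marker, was at 0 in every library. The summed level of the fibroblast markers was 31200 to 34030 CPM in WT DMSO and 7974 to 8273 CPM in WT at 24 h of CFZ, and 26060 to 32240 CPM against 10450 to 12450 CPM in the Nrf1-KO cells. Of the 7 markers, 7 fell in WT and 6 in Nrf1-KO at 24 h, beside 40.5% and 41.1% of all genes that passed the expression filter. The 8 markers of epithelial, endothelial and blood cells summed to 59.4 to 159.1 CPM over all libraries, here scaled by total count alone. Krt14, also an epithelial marker, was the highest of them, at up to 151.9 CPM. The part of the fall of the fibroblast markers in the results for ribosome biogenesis genes was not tested. All levels are relative to the mRNA of the same library, so that a higher level per cell and a loss of other mRNAs cannot be told apart.

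Most ribosome biogenesis genes rose with CFZ in both lines, by modest amounts. All 6 groups were fitted together in edgeR, and each adjusted p-value given is from its quasi-likelihood test, with Benjamini-Hochberg adjustment over all genes tested. At 6 h, 36 of the 41 rose over DMSO in the WT cells, where 35.6% of all genes tested were higher, and 2 of 41 were lower, against 36.2% of all genes. At 24 h 33 of 41 were higher (43.2% of all genes) and 5 were lower (40.5%). The median log2 fold change of the 41 genes was 0.36 at 6 h and 0.49 at 24 h, beside -0.02 and 0.02 over all genes tested. The 6 h and 24 h comparisons within a line share their DMSO libraries.

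The Nrf1-KO cells gave 32 of 41 genes higher and 4 lower at 6 h, where 34.5% and 35% of all genes were called in those directions. Their counts at 24 h were 32 higher and 5 lower, against 44.4% and 41.1% of all genes. The medians were 0.33 at 6 h and 0.55 at 24 h (all genes, -0.01 and 0.03). At 6 h 32 of the 41 were higher in both lines, where 26.1% of all genes were, and 2 were lower in both (Ubtf and Nop10), where 26.2% were. At 24 h 32 were higher in both (35.2% of all genes) and 4 lower (Ubtf, Nop10, Dkc1 and Gar1, against 32.8%). At neither time was any of the 41 called in opposite directions in the 2 lines.

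Few of these changes were large. In WT at 6 h no gene of the 41 changed by at least 2-fold in either direction, where 3.98% of all genes tested rose and 5.65% fell by that much. By 24 h 4 of them had risen at least 2-fold (Polr1e, Nop14, Rrp12 and Grwd1, against 10.5% of all genes) and 1 had fallen as far (Ubtf, against 14.5%). Among the Nrf1-KO changes none reached a 2-fold rise at 6 h (3.3% of all genes) and Nop10 fell (4.26%). At 24 h Ncl, Npm1, Nop14 and Rrp12 rose at least 2-fold (11.5% of all genes) while Ubtf and Nop10 fell (15.2%). Most of the 41 changes thus lay within a doubling in either direction.

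**Figure D1:**
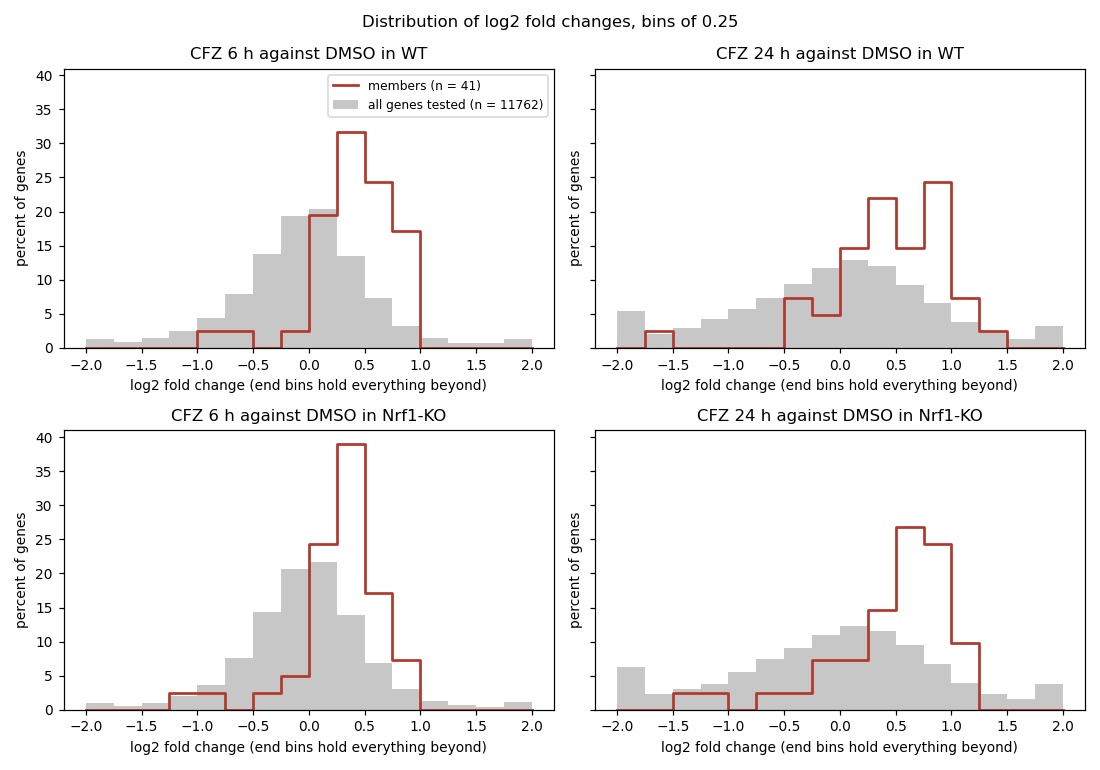
Distribution of log2 fold changes from DMSO to CFZ in the 2 lines at 6 h and 24 h, as the percent of genes (vertical axis) in bins of log2 fold change (horizontal axis). Grey bars show all 11762 genes tested and the red line the 41 ribosome biogenesis genes, whose median lies at 0.36 and 0.49 in WT and at 0.33 and 0.55 in Nrf1-KO at 6 h and 24 h.

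The scale of the counts matters for changes of this size. With upper-quartile scaling in place of TMM the median of all genes moved from -0.02 to -0.13 in WT at 6 h, and with scaling by library size alone to -0.15. At 24 h in WT it moved to -0.11 and -0.08 under these scalings and in Nrf1-KO to -0.08 and -0.15. In Nrf1-KO at 6 h it moved to -0.08 and -0.12. In WT at 6 h the share of higher genes among all called genes went from 49.6% to 37.9% and 35.4%, in the same order. For the 41 genes the counts of higher genes in WT at 6 h under these scalings were 32 and 31, in place of 36, and their median was 0.25 and 0.23. In Nrf1-KO the share went from 49.7% to 41.1% and 36.4% at 6 h and from 52% to 45.7% and 41.6% at 24 h. With library size alone 26 and 30 of the 41 were higher at these times in Nrf1-KO, in place of 32 and 32. In WT at 24 h upper-quartile scaling took the calls of Ebna1bp2, Nob1, Nop56 and Polr1c. The median of the 41 at 24 h was 0.36 and 0.39 in WT under the 2 scalings, in place of 0.49. In Nrf1-KO it was 0.44 and 0.37, in place of 0.55. Among the genes called in the 4 comparisons with DMSO, Bop1 and Ebna1bp2 changed sign under one or both of these scalings. The calls concerned, at 0.08 to 0.11 on the log2 scale, were also lost when single libraries were left out. For Bop1 these were WT DMSO replicate 1 or 3 or WT 6 h replicate 3 in WT, and Nrf1-KO DMSO replicate 1 or 3 or Nrf1-KO 6 h replicate 2 or 3 in Nrf1-KO (0.066 to 0.107). For Ebna1bp2 they were WT DMSO replicate 1 or 3 or any WT 24 h replicate in WT at 24 h (0.029 to 0.086), and Nrf1-KO DMSO replicate 1 or 2 or Nrf1-KO 6 h replicate 2 or 3 in Nrf1-KO at 6 h (0.05 to 0.086).

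**Figure D2:**
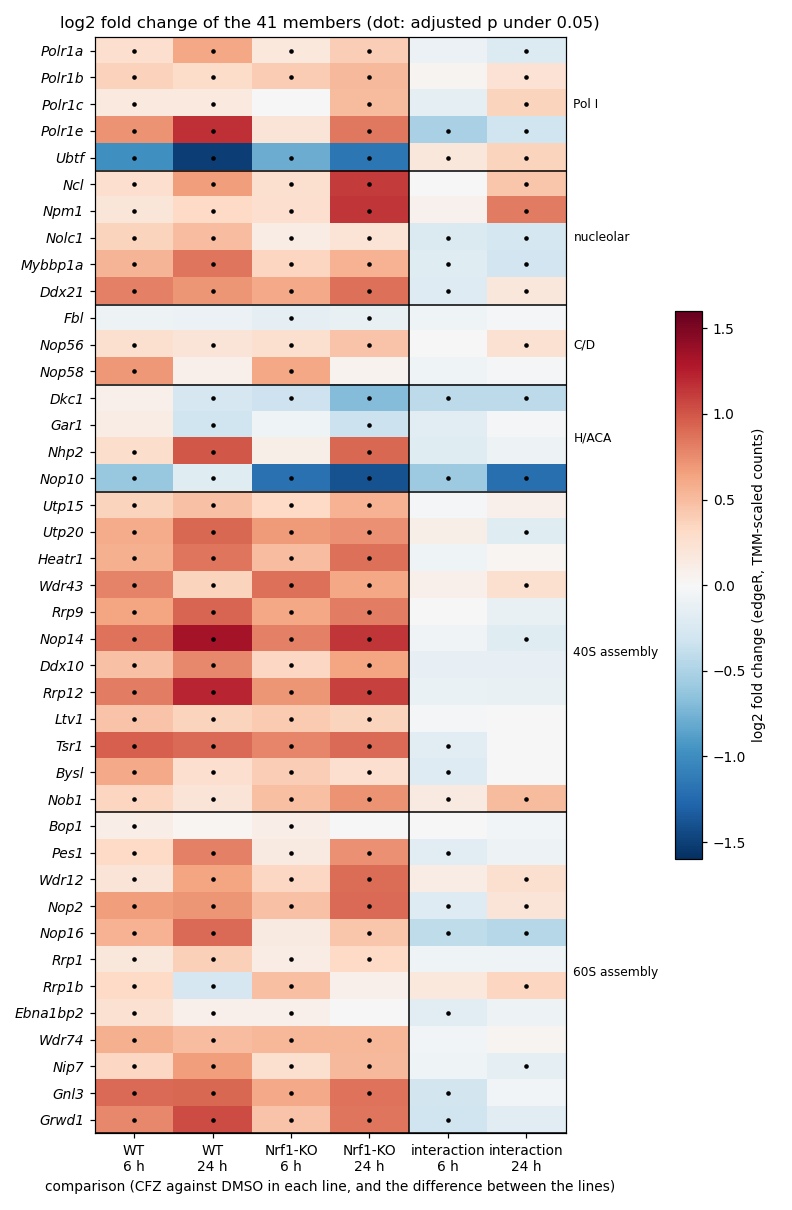
Log2 fold change of each of the 41 genes (rows, grouped by role) for CFZ against DMSO in WT and Nrf1-KO at 6 h and 24 h and for the interaction of genotype and CFZ (columns). Red is higher and blue lower, and a dot marks an adjusted p under 0.05. The rows of Ubtf and Nop10 are blue in the 4 comparisons with DMSO, and all 12 rows of 40S assembly are red there.

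RefSeq promoters, from 250 bases before to 50 bases after each start site on GRCm38.p6, were found for 37 of the 41 genes (not for Npm1, Fbl, Rrp12 and Bop1). They were searched for 3 sets of letters on both strands. The palindromic E-box CACGTG, the recognition sequence of Myc with Max and of related factors, was present for 8 of the 37 genes (21.6%), beside 8.09% of all 27025 genes with a promoter. These 27025 include genes that did not pass the expression filter, which all 41 passed, so the 2 shares are of unlike sets. The same holds for the other letters. TGACGTCA, the cyclic AMP response element, was present for 0 of 37 (2.03% of all genes), and TGACNNNGC, the core of the antioxidant response element that factors of the Nrf1 family recognize, for 2 of 37, Gar1 and Bysl (5.4%, beside 14% of all genes). A match is a description of the letters and not a bound site. All 8 matches to CACGTG are shown, in 30-base windows of the strand of the gene with the E-box in capitals, so that their flanks can be compared:
Grwd1 (chr7:45830740-45830769, minus strand): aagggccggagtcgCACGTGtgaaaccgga
Ltv1 (chr10:13193092-13193121, minus strand): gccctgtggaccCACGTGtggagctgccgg
Mybbp1a (chr11:72441347-72441376, plus strand): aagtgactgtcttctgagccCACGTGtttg
Nop2 (chr6:125131811-125131840, plus strand): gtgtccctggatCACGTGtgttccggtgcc
Pes1 (chr11:3963965-3963994, plus strand): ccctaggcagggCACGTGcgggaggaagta
Tsr1 (chr11:74898092-74898121, plus strand): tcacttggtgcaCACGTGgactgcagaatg
Utp20 (chr10:88826765-88826794, minus strand): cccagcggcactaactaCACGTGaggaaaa
Wdr43 (chr17:71616220-71616249, plus strand): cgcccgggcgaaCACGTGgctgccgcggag

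Of these 8 sites 7 lay after the start site, 2 to 40 bases from it, and the site of Nop2 lay 60 bases before it. In each of the 4 comparisons of CFZ with DMSO 8 of the 8 rose, beside 36 and 33 of all 41 in WT and 32 and 32 in Nrf1-KO at 6 h and 24 h. Over all genes tested 35.6% and 43.2% rose in WT and 34.5% and 44.4% in Nrf1-KO. As most of the 41 rose, the count of 8 does not set these genes apart from the rest. The call of Pes1 in Nrf1-KO at 6 h was lost with upper-quartile scaling (0.07), library size alone (0.03) and no expression filter (0.09). As a description without a test, the median log2 fold changes of the 8 were 0.63 and 0.83 in WT and 0.46 and 0.73 in Nrf1-KO at 6 h and 24 h. Those of the 29 genes whose promoters had no CACGTG were 0.34 and 0.49, and 0.26 and 0.52. The 8 were spread over 40S assembly (Ltv1, Tsr1, Utp20 and Wdr43), 60S assembly (Grwd1, Nop2 and Pes1) and the nucleolar group (Mybbp1a).

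Of the 5 Pol I transcription genes, 4 rose in WT at both times and 1, Ubtf, fell. Among all genes tested 35.6% rose and 36.2% fell in WT at 6 h, and 43.2% and 40.5% at 24 h. Ubtf, which encodes the ribosomal DNA binding factor of the preinitiation complex, is encoded on chromosome 11 (GRCm38, 102304560 to 102319742). It stood at 218.6, 233.1 and 224.5 CPM in the DMSO libraries, 114.4, 113.8 and 114.2 at 6 h and 75.2, 79.6 and 81.6 at 24 h in WT cells. Nrf1-KO cells had 211.9, 216.9 and 221.4 CPM in the DMSO libraries, 124.2, 125.6 and 125.1 at 6 h and 99.15, 98.4 and 94.5 at 24 h. Every CFZ library lay below every DMSO library of its line, and the 24 h libraries below the 6 h libraries, with no overlap. The log2 fold change in WT was -0.98 (SE 0.035, adjusted p = 1.35e-21) at 6 h and -1.51 (SE 0.0365, adjusted p = 1.18e-26) at 24 h. It was -0.80 (SE 0.0353, adjusted p = 5.93e-19) and -1.16 (SE 0.0349, adjusted p = 3.68e-24) in Nrf1-KO, and Ubtf had the lowest fold change of the 41 genes in WT at both times.

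The polymerase subunits went the other way. Polr1e, which encodes the PAF53 subunit, stood at 12.3, 14.1 and 12.3 CPM in the DMSO libraries, 20.6, 19.7 and 23.6 at 6 h and 26.3, 29.3 and 30.4 at 24 h in WT, and at 13.5, 12.9 and 13.3 CPM in the DMSO libraries, 16.6, 13.6 and 15.7 at 6 h and 21.4, 22.8 and 26.95 at 24 h in Nrf1-KO. Its WT libraries at 6 h and 24 h all lay above those in DMSO, with log2 fold changes of 0.72 (SE 0.0917, adjusted p = 2.68e-08) and 1.17 (SE 0.0853, adjusted p = 5.42e-14). In Nrf1-KO, where the lowest 6 h library was just above the highest DMSO library, the value at 6 h was 0.21 (adjusted p = 0.0677), short of the threshold, and at 24 h it rose by 0.84 (SE 0.0847, adjusted p = 1e-10). The 6 h value passed with the replicate number as a block and in a model of the compared groups only. It also passed without Nrf1-KO 6 h replicate 2 (0.296).

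Polr1a, the catalytic subunit, stood at 137.2, 141.1 and 136.6 CPM in the DMSO libraries, 164.8, 164.8 and 169.3 at 6 h and 223.4, 207.5 and 206.2 at 24 h in WT. Its libraries in Nrf1-KO stood at 140.9, 127.3 and 119.7 CPM in the DMSO libraries, 153.1, 146 and 133.7 at 6 h and 186.3, 171.2 and 150.1 at 24 h. The WT groups did not overlap, whereas in Nrf1-KO the DMSO and 6 h libraries did. It rose by 0.27 (SE 0.0568, adjusted p = 0.000117) and 0.61 (SE 0.0557, adjusted p = 9.92e-12) in WT. In Nrf1-KO the changes were 0.17 (adjusted p = 0.0106) and 0.39 (adjusted p = 1.41e-07), and the first of these lost its call with upper-quartile scaling (0.10), with library size alone (0.06), without Nrf1-KO DMSO replicate 3 (0.11) and without Nrf1-KO 6 h replicate 1 (0.13). Polr1b, the second-largest subunit, rose by 0.37 and 0.29 in WT and by 0.41 and 0.52 in Nrf1-KO.

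Polr1c, a subunit shared with RNA polymerase III, stood at 79.2, 77.2 and 76.2 CPM in the DMSO libraries, 88.7, 81.05 and 89.7 at 6 h and 88.75, 86.8 and 83.7 at 24 h in WT. The Nrf1-KO libraries held 60.7, 64.9 and 61.8 CPM in the DMSO libraries, 58.7, 65.4 and 65.1 at 6 h and 84.4, 89 and 91.65 at 24 h. In WT it rose by 0.16 (adjusted p = 0.00288) and 0.15 (adjusted p = 0.0028), although neither call held with upper-quartile scaling (0.05 and 0.02) or with library size alone (0.02 and 0.05), and the second was lost without the expression filter (0.10). In Nrf1-KO it changed by 0.01 (adjusted p = 0.88) at 6 h, which did not pass, and rose by 0.50 (SE 0.0451, adjusted p = 7.62e-12) at 24 h, where its libraries lay clear of the DMSO libraries.

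All 5 multifunctional nucleolar genes rose in both lines at both times under TMM scaling. The shares of all genes tested that rose at 6 h and 24 h were 35.6% and 43.2% in WT and 34.5% and 44.4% in Nrf1-KO. Ncl and Npm1 encode nucleolin and nucleophosmin, the abundant RNA-binding and chaperone proteins of the nucleolus. Ncl, on chromosome 1 of GRCm38 from 86344719 to 86359400, stood at 1496, 1656 and 1553 CPM in the DMSO libraries, 1805, 1887 and 1960 at 6 h and 2453, 2510 and 2526 at 24 h in WT. In Nrf1-KO it stood at 1507, 1505 and 1525 CPM in the DMSO libraries, 1787, 1840 and 1800 at 6 h and 3148, 3359 and 3344 at 24 h. Its WT libraries rose in steps without overlap, and the 3 Nrf1-KO libraries at 24 h were the highest of all 18. The log2 fold changes were 0.26 (adjusted p = 1.35e-07) and 0.67 (adjusted p = 2.96e-17) in WT. They were 0.26 (adjusted p = 2.46e-07) and 1.12 (SE 0.0368, adjusted p = 3.68e-23) in Nrf1-KO.

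Npm1 stood at 1753, 1775 and 1734 CPM in the DMSO libraries, 1965, 2031 and 2025 at 6 h and 2137, 2275 and 2140 at 24 h in WT. The Nrf1-KO libraries stood at 1549, 1511 and 1628 CPM in the DMSO libraries, 1871, 1879 and 1888 at 6 h and 3233, 3464 and 3690 at 24 h. As for Ncl, the 3 Nrf1-KO libraries at 24 h lay above the other 15. Npm1 rose by 0.19 (adjusted p = 4.11e-05) and 0.32 (SE 0.0383, adjusted p = 5.97e-09) in WT, and the first call was lost when the upper quartile (0.085) or library size alone (0.06) set the scale. Its changes in Nrf1-KO were 0.27 (adjusted p = 3.4e-07) and 1.15 (SE 0.0386, adjusted p = 6.96e-23). In the GENCODE M21 transcripts 15.24% of the read-length stretches of Npm1 also occur in other genes, among them the pseudogenes Gm14681, Gm9118 and Gm6477, so that its reads could have been split in a way that is not known here.

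Mybbp1a, a nucleolar protein first known as a partner of Myb and one of the genes with an E-box in its promoter, stood at 311.2, 360.1 and 328.6 CPM in the DMSO libraries, 489.1, 472.9 and 491.5 at 6 h and 606.2, 593.3 and 609.1 at 24 h in WT. It stood at 344.7, 312 and 295.3 CPM in the DMSO libraries, 407.2, 415.5 and 381.8 at 6 h and 475.1, 467.3 and 453.5 at 24 h in Nrf1-KO, and no CFZ library overlapped a DMSO library of its line. The log2 fold changes were 0.54 (adjusted p = 6.46e-12) and 0.86 (adjusted p = 2.44e-17) in WT, and 0.34 (adjusted p = 1.3e-07) and 0.55 (adjusted p = 1.33e-12) in Nrf1-KO. Ddx21, an RNA helicase that acts with Pol I, rose by 0.81 and 0.71 in WT and by 0.61 and 0.88 in Nrf1-KO. The smallest changes of the group in Nrf1-KO were those of Nolc1, a snoRNP chaperone, at 0.12 and 0.22, and the second of these calls was lost with library size alone (0.03). The first was lost with DESeq2, under both other scalings, without the expression filter and without Nrf1-KO 6 h replicate 1 (0.09), Nrf1-KO 6 h replicate 2 (0.12) or Nrf1-KO DMSO replicate 3 (0.07).

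**Figure D3:**
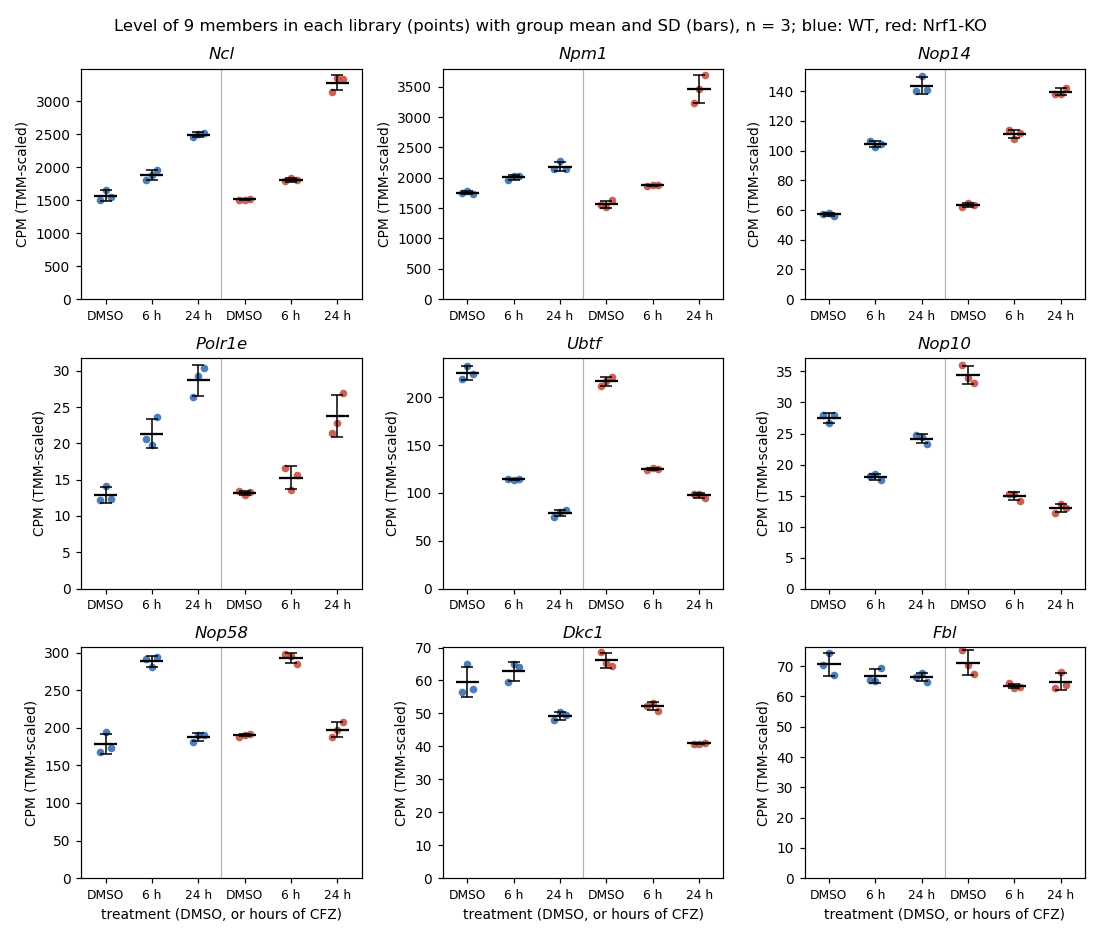
Level in TMM-scaled CPM (vertical axis, from 0) of 9 of the genes in each library. Points are libraries, blue for WT and red for Nrf1-KO, and bars are the group mean and SD (n = 3). Ubtf falls in both lines, Nop10 falls further in Nrf1-KO, Nop58 is high at 6 h only, and Ncl and Npm1 are highest in Nrf1-KO at 24 h.

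The snoRNP genes were divided. Of the 3 box C/D genes 2 rose in WT at 6 h and 1 at 24 h, beside 35.6% and 43.2% of all genes. Fbl encodes fibrillarin, the methyltransferase of the particle. It stood at 70.3, 74.5 and 67 CPM in the DMSO libraries, 65.5, 65.2 and 69.4 at 6 h and 66.6, 67.8 and 64.95 at 24 h in WT. The libraries of the Nrf1-KO line stood at 75.5, 70.5 and 67.3 CPM in the DMSO libraries, 64.35, 62.9 and 63.1 at 6 h and 62.7, 68.2 and 63.9 at 24 h. Its groups overlapped in WT, where the changes were -0.08 (adjusted p = 0.119) and -0.09 (adjusted p = 0.082) and did not pass. They passed as falls with upper-quartile scaling (-0.19 and -0.23), library size alone (-0.215 and -0.19), no expression filter (-0.11 and -0.145) and without WT DMSO replicate 3 (-0.12 and -0.13), and at 24 h also in a model of the compared groups only and without WT DMSO replicate 1 (-0.12 in both). In Nrf1-KO it fell by 0.16 at 6 h (adjusted p = 0.00536) and by 0.12 at 24 h (adjusted p = 0.0157), and the second call was lost without Nrf1-KO DMSO replicate 1 (-0.08). Fbl shares 53.77% of its read-length stretches with other annotated transcripts (Tulp4 and Gm5812), and its level is uncertain for that reason.

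Nop56 and Nop58 encode the paired scaffold proteins that hold the box C/D RNA. Nop56 stood at 171, 199.3 and 162.8 CPM in the DMSO libraries, 205.8, 213.9 and 217.5 at 6 h and 201.3, 209 and 206 at 24 h in WT and at 191.2, 196.6 and 180.6 CPM in the DMSO libraries, 230, 227.3 and 221.8 at 6 h and 250.8, 253.6 and 271 at 24 h in Nrf1-KO. It rose by 0.26 (adjusted p = 2.39e-05) and 0.21 (adjusted p = 0.000229) in WT, the latter not with upper-quartile scaling (0.07). In Nrf1-KO it rose by 0.26 (adjusted p = 2.14e-05) and 0.45 (adjusted p = 2.71e-10). Its libraries under CFZ all lay above those in DMSO, and 27.61% of its read-length stretches occur in other annotated transcripts.

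Nop58, which was singled out after its values were seen, took another course. It stood at 168.5, 193.9 and 172.8 CPM in the DMSO libraries, 291.2, 280.8 and 294.2 at 6 h and 181.4, 191 and 191.2 at 24 h in WT. In Nrf1-KO the libraries stood at 188.5, 190.5 and 191.7 CPM in the DMSO libraries, 298.6, 295.8 and 284.9 at 6 h and 187.5, 197.7 and 208.1 at 24 h. The 6 libraries at 6 h lay far above the other 12, and the DMSO and 24 h libraries overlapped in both lines. At 6 h Nop58 rose by 0.69 (SE 0.042, adjusted p = 1.26e-15) in WT and 0.62 (SE 0.0421, adjusted p = 2.33e-14) in Nrf1-KO. At 24 h it differed from DMSO by 0.08 (adjusted p = 0.0942) and 0.06 (adjusted p = 0.214), of which the former passed without WT DMSO replicate 2 (0.14), and the latter passed as a fall with library size alone (-0.13). It was lower than at 6 h by -0.62 and -0.57, the largest falls from 6 h to 24 h among the 41 genes in each line.

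The box H/ACA particle has 4 core proteins, and its genes included 3 of the few that fell. In WT at 24 h Dkc1, Gar1 and Nop10 fell and Nhp2 rose, and the same 3 fell and the same 1 rose in Nrf1-KO. Of all genes tested 40.5% fell and 43.2% rose in WT at 24 h, and 41.1% fell and 44.4% rose in Nrf1-KO. The median of the 4 genes was -0.23 in WT and -0.52 in Nrf1-KO at 24 h, below the median of all genes in both lines.

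Nop10, which encodes the smallest of the 4 proteins, lies on chromosome 2 from 112261926 to 112263269. It stood at 27.9, 26.6 and 28 CPM in the DMSO libraries, 18.2, 18.4 and 17.5 at 6 h and 24.8, 24.4 and 23.4 at 24 h in WT. In Nrf1-KO it stood at 36, 33.9 and 33.2 CPM in the DMSO libraries, 15.2, 15.3 and 14.15 at 6 h and 12.25, 13.6 and 13 at 24 h. Its WT libraries were lowest at 6 h and had come partway back at 24 h, whereas in Nrf1-KO the 24 h libraries were the lowest of all. The log2 fold change was -0.61 (SE 0.0611, adjusted p = 1.99e-10) at 6 h and -0.19 (SE 0.0569, adjusted p = 0.00282) at 24 h in WT. It was -1.19 (SE 0.0631, adjusted p = 5.68e-17) and -1.40 (SE 0.0598, adjusted p = 4.3e-20) in Nrf1-KO. From 6 h to 24 h it rose by 0.42 (adjusted p = 9.44e-07) in WT and changed by -0.20 (adjusted p = 0.0236) in Nrf1-KO, a call that was lost with DESeq2 and without Nrf1-KO 24 h replicate 1 (-0.18) or Nrf1-KO 6 h replicate 1 or 2 (-0.19).

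Dkc1 encodes dyskerin, the pseudouridine synthase, and was also named after its values were seen. It stood at 56.6, 64.9 and 57.3 CPM in the DMSO libraries, 59.45, 64.95 and 64 at 6 h and 48, 50.5 and 49.4 at 24 h in WT and at 68.6, 65.4 and 64.4 CPM in the DMSO libraries, 52.4, 53.2 and 50.8 at 6 h and 40.7, 40.8 and 41.2 at 24 h in Nrf1-KO. In WT it did not pass at 6 h (0.08, although 0.14 without WT DMSO replicate 2 and 0.12 without WT 6 h replicate 1 did) and changed by -0.27 (adjusted p = 1.2e-05) at 24 h. In Nrf1-KO it fell at both times, with log2 fold changes of -0.34 (adjusted p = 6.07e-07) and -0.69 (adjusted p = 2.61e-14) and with no overlap between groups. Gar1, which binds dyskerin, stood at 23.3, 23.5 and 21.7 CPM in the DMSO libraries, 25.6, 23.7 and 25.5 at 6 h and 17.7, 17.9 and 19.15 at 24 h in WT and at 27.45, 27.4 and 26.3 CPM in the DMSO libraries, 24.4, 26.6 and 26.7 at 6 h and 20.8, 21.75 and 21 at 24 h in Nrf1-KO. Its changes at 24 h were -0.32 (adjusted p = 2.76e-05) and -0.34 (adjusted p = 2.01e-06), while at 6 h they were 0.12 and -0.06 and passed in neither line. The WT value at 6 h passed without WT 6 h replicate 2 (0.16), and that in Nrf1-KO passed as a fall with upper-quartile scaling (-0.14) and library size alone (-0.18).

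Nhp2, the remaining H/ACA core protein, stood at 50.8, 56.4 and 47.6 CPM in the DMSO libraries, 62.9, 58.8 and 67.4 at 6 h and 100.4, 101.6 and 105.4 at 24 h in WT and at 58.4, 62.6 and 57.8 CPM in the DMSO libraries, 63.25, 63.9 and 62.7 at 6 h and 106.3, 110.4 and 119.2 at 24 h in Nrf1-KO. It rose by 0.29 (adjusted p = 4.3e-05) and 0.99 (SE 0.0528, adjusted p = 1.63e-17) in WT. In Nrf1-KO the change at 6 h was 0.09 (adjusted p = 0.156), and at 24 h it rose by 0.91 (SE 0.0501, adjusted p = 3.12e-17). The 24 h libraries of both lines lay above all others. Within 1 four-protein particle the changes at 24 h thus ran from -0.32 to 0.99 in WT and from -1.40 to 0.91 in Nrf1-KO.

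All 12 genes of the small subunit processome and 40S assembly rose in both lines at both times under TMM scaling. With library size alone Bysl, a 40S assembly factor among them, did not pass in Nrf1-KO at 24 h (0.09). Under TMM scaling 35.6% and 43.2% of all genes rose in WT at 6 h and 24 h, and 34.5% and 44.4% in Nrf1-KO. The median log2 fold change of the 12 was 0.59 at 6 h and 0.81 at 24 h in WT, and 0.56 and 0.72 in Nrf1-KO. Nop14, a processome component required for cleavage of the precursor, had the largest rise of the 41 in WT at 24 h. It stood at 57.2, 57.8 and 56.3 CPM in the DMSO libraries, 106.2, 102.3 and 104.8 at 6 h and 140, 150.6 and 141.1 at 24 h in WT. In Nrf1-KO it stood at 62.05, 64.4 and 63.3 CPM in the DMSO libraries, 113.6, 108.2 and 111.6 at 6 h and 138.4, 138.4 and 142.3 at 24 h. The 3 groups of each line were fully separated. It rose by 0.87 (SE 0.0392, adjusted p = 6.83e-19) and 1.34 (SE 0.0378, adjusted p = 7.72e-25) in WT and by 0.81 (adjusted p = 4.25e-18) and 1.14 (adjusted p = 1.8e-23) in Nrf1-KO. An antisense gene, Gm15522, covers 5.27% of its exonic bases.

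Rrp12, an export factor of ribosomal precursors, rose by 0.81 and 1.21 in WT and by 0.71 and 1.09 in Nrf1-KO. The processome components Utp20, Heatr1 and Rrp9 rose by 0.85 to 0.93 in WT at 24 h, and Ddx10, a helicase, by 0.77. Tsr1, a GTPase-like 40S maturation factor with an E-box in its promoter, rose by 0.96 at 6 h, the largest rise in WT at that time, but 32.32% of its exonic bases overlap Srr on the opposite strand, and whether reads were counted by strand was not given in the sources used here. Wdr43, a processome component that also has an E-box in its promoter, had the largest rise in Nrf1-KO at 6 h (0.88).

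Nob1, the endonuclease that makes the final cut of 18S ribosomal RNA, had the smallest change of the group in WT at 24 h. It stood at 81.1, 78.6 and 79.1 CPM in the DMSO libraries, 101.2, 98 and 102.9 at 6 h and 90.3, 91.4 and 94.1 at 24 h in WT. The Nrf1-KO libraries stood at 73, 73.6 and 71.4 CPM in the DMSO libraries, 103.4, 95.9 and 105.9 at 6 h and 117, 120.5 and 119.6 at 24 h. It rose by 0.34 (adjusted p = 3.1e-09) and 0.21 (adjusted p = 1.18e-05) in WT, and the latter call was lost with upper-quartile scaling (0.07). In Nrf1-KO it rose by 0.48 (adjusted p = 2.32e-12) and 0.71 (adjusted p = 7.57e-18), and its 24 h libraries there lay above all 15 others.

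All 12 genes of 60S assembly rose in WT at 6 h under TMM scaling, where 35.6% of all genes tested rose. Bop1 and Wdr12 lost that call with upper-quartile scaling and Bop1, Wdr12 and Rrp1 with library size alone. At 24 h 10 rose in WT and 1, Rrp1b, fell, beside 43.2% and 40.5% of all genes. Bop1 passed as a fall there with upper-quartile scaling (-0.11). The counts in Nrf1-KO were 11 higher at 6 h and 9 at 24 h (34.5% and 44.4% of all genes), with none lower under TMM scaling (35% and 41.1%). Upper-quartile scaling and library size alone took Bop1, Ebna1bp2, Pes1 and Rrp1 from the calls at 6 h, and at 24 h they made Bop1 (-0.12 and -0.19) and Ebna1bp2 (-0.11 and -0.19) fall. The medians were 0.32 and 0.65 in WT and 0.29 and 0.53 in Nrf1-KO.

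Grwd1, a histone and ribosomal protein chaperone and another of the E-box genes, stood at 23.7, 28.8 and 23.5 CPM in the DMSO libraries, 39.4, 44 and 46.3 at 6 h and 52.45, 52.2 and 51.8 at 24 h in WT and at 27.9, 26.1 and 29.3 CPM in the DMSO libraries, 36.8, 40.8 and 37.4 at 6 h and 49.65, 48.9 and 53.7 at 24 h in Nrf1-KO. CFZ and DMSO libraries did not overlap in either line. The log2 fold changes were 0.77 (adjusted p = 1.44e-11) and 1.04 (SE 0.0662, adjusted p = 1.55e-15) in WT and 0.46 (adjusted p = 9.86e-07) and 0.86 (adjusted p = 5.58e-14) in Nrf1-KO. Gnl3, the nucleolar GTPase nucleostemin, rose by 0.91 and 0.92 in WT. Within the PeBoW complex, which processes the 60S precursor, Pes1 and Wdr12 rose by 0.81 and 0.64 in WT at 24 h while Bop1 changed by 0.03 and did not pass (adjusted p = 0.537). In Nrf1-KO the 3 values were 0.73, 0.90 and -0.01, in the same order.

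Rrp1b, a nucleolar regulator of 60S processing and of a phosphatase, stood at 32, 36.3 and 34.9 CPM in the DMSO libraries, 42.7, 42.3 and 43.5 at 6 h and 28.9, 29 and 27.7 at 24 h in WT and at 28.6, 32.1 and 27.1 CPM in the DMSO libraries, 41.7, 38.5 and 41.85 at 6 h and 32.1, 29.35 and 30.6 at 24 h in Nrf1-KO. The 6 h libraries were the highest of each line. In WT it rose by 0.32 (adjusted p = 1.15e-05) at 6 h and at 24 h it fell, with a log2 fold change of -0.27 (adjusted p = 0.0002). In Nrf1-KO it rose by 0.48 (adjusted p = 2.83e-08) at 6 h and its change at 24 h was 0.08 (adjusted p = 0.232), which passed without Nrf1-KO DMSO replicate 2 (0.14). Its close relative Rrp1 rose by 0.39 in WT and 0.32 in Nrf1-KO at 24 h.

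Nop16, a 60S precursor component, stood at 22.1, 28.5 and 22.9 CPM in the DMSO libraries, 32.5, 40.6 and 34.3 at 6 h and 44.5, 47.5 and 44.75 at 24 h in WT and at 32.9, 29.9 and 32.3 CPM in the DMSO libraries, 35.2, 35.3 and 34.4 at 6 h and 41.1, 44.3 and 44.2 at 24 h in Nrf1-KO. Its CFZ libraries lay above the DMSO libraries of the same line, in Nrf1-KO at 6 h by a narrow margin. It rose by 0.55 (adjusted p = 1.7e-07) and 0.90 (adjusted p = 6.8e-13) in WT. In Nrf1-KO the changes were 0.14 (adjusted p = 0.0943), which passed only in a model of the compared groups, and 0.45 (adjusted p = 4.55e-07). Ebna1bp2, which acts in early 60S assembly, passed narrowly at 24 h in WT (0.08, adjusted p = 0.0488). That call was lost with DESeq2, both other scalings, no expression filter and a mean count of at least 10. The replicate block and the model of the compared groups only left it out as well.

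The course from 6 h to 24 h differed from gene to gene. In WT 20 of the 41 genes were higher at 24 h than at 6 h, where 36.9% of all genes were, and 10 were lower, where 35.4% were. The Nrf1-KO cells had 25 higher (38.7% of all genes) and 10 lower (38.3%). The medians were 0.11 and 0.21, beside 0.01 and 0.00 over all genes. The WT median was 0.046 to 0.126 when 1 library was left out, moving most without WT 6 h replicate 1 or 3, and the Nrf1-KO median was 0.14 with library size alone. Nhp2 rose most between the times in WT (0.70) and Npm1 in Nrf1-KO (0.88). Nop58 and Rrp1b fell most in both lines, by 0.62 and 0.59 in WT and by 0.57 and 0.41 in Nrf1-KO. Ddx21 was lower at 24 h than at 6 h in WT (-0.10, a call lost with library size alone) and higher in Nrf1-KO (0.28). Of the 6 genes with an intronic snoRNA in the annotation (Ncl, Nop56, Nop58, Dkc1, Wdr43 and Tsr1), 3 were lower at 24 h than at 6 h in WT, 1 was higher and 2 did not pass.

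The summed level of the 41 genes was 6544 to 7030 CPM in WT DMSO, 8312 to 8634 at 6 h and 9377 to 9641 at 24 h. In Nrf1-KO it was 6479 to 6619 CPM in DMSO, 7974 to 8086 at 6 h and 11210 to 11850 at 24 h. Without Ncl and Npm1 the sums at 24 h were 4787 to 4864 CPM in WT and 4818 to 4828 CPM in Nrf1-KO, so that the gap between the lines in the sum at 24 h lay in these 2 genes.

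In DMSO 14 of the 41 genes were higher in Nrf1-KO than in WT, against 25.7% of all genes, and 8 were lower, against 29.1%. The values ran from -0.31 (SE 0.0455, adjusted p = 7.3e-07) for Polr1c to 0.38 (SE 0.0744, adjusted p = 7.08e-05) for Nop16. All 4 box H/ACA genes were higher in Nrf1-KO DMSO, from 0.15 for Dkc1 to 0.31 for Nop10, with overlapping libraries for Dkc1. The count of lower genes was 5 without WT DMSO replicate 2, 5 without Nrf1-KO DMSO replicate 3, 5 with DESeq2 and 3 with library size alone, and under the last the share of higher calls over all genes went from 46.9% to 57.7%.

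At 6 h of CFZ 4 of the 41 genes were higher in Nrf1-KO than in WT (30.5% of all genes) and 16 were lower (30.8%). The median was -0.04 (-0.088 without WT 6 h replicate 1), and it turned to 0.01 when the upper quartile and to 0.03 when library size alone set the scale. The count of higher genes was 7 under the former, 10 under the latter and 7 in a model of the compared groups only, and with library size alone the share of higher calls over all genes went from 49.8% to 60.8%. Polr1e had the lowest value (-0.48, SE 0.0966, adjusted p = 7.4e-05) and Bop1 the highest (0.26). At 24 h 17 genes were higher (35.6% of all genes) and 9 lower (36.4%), and the values ran from -0.89 (SE 0.0667, adjusted p = 2.18e-13) for Nop10 to 0.66 (SE 0.0383, adjusted p = 3.46e-16) for Npm1.

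Whether the response itself differed between the lines was tested by the interaction of genotype and CFZ, where a positive value is a more positive response in Nrf1-KO. At 6 h 2 of the 41 interactions were positive, against 19.8% of all genes, and 14 were negative, against 18.4%. The positive ones were Ubtf (0.19, SE 0.0498, adjusted p = 0.00349) and Nob1 (0.15, SE 0.055, adjusted p = 0.0357). Nob1 lost its call with DESeq2, without the expression filter and when any 1 of 7 libraries was left out (WT DMSO replicate 1, WT 6 h replicates 1, 2 and 3, Nrf1-KO DMSO replicate 3 and Nrf1-KO 6 h replicates 1 and 3), with values from 0.10 to 0.13, and the count of positive genes was then 1. The most negative were Nop10 (-0.58, SE 0.0902, adjusted p = 4.3e-06), Polr1e (-0.52, SE 0.135, adjusted p = 0.00271), Dkc1 (-0.41, adjusted p = 1.58e-05) and Nop16 (-0.41, adjusted p = 0.00283). The call for Mybbp1a (-0.20, adjusted p = 0.0182) was lost without Nrf1-KO DMSO replicate 1 (-0.13) and without Nrf1-KO 6 h replicate 3 (-0.16), and that for Grwd1 (-0.32, adjusted p = 0.011) without Nrf1-KO DMSO replicate 3 (-0.265).

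At 24 h 12 interactions were positive (29.7% of all genes) and 10 negative (30%). Npm1 had the most positive value (0.83, SE 0.0541, adjusted p = 2.11e-14), followed by Nob1 (0.51, SE 0.0537, adjusted p = 1.43e-09) and Ncl (0.45, SE 0.0515, adjusted p = 7.52e-09). Nop10 had the most negative (-1.21, SE 0.0839, adjusted p = 1.03e-13), followed by Nop16 (-0.46, adjusted p = 0.000236) and Dkc1 (-0.42, adjusted p = 5.58e-06). For Nop16 the lines differed in DMSO, where it was higher in Nrf1-KO. Its level did not pass between the lines at 6 h or 24 h of CFZ under any setting used. The fall of Ubtf was smaller in Nrf1-KO (0.35, SE 0.0507, adjusted p = 4.75e-07), and Polr1c rose further there (0.35, SE 0.0639, adjusted p = 2.12e-05). Polr1c rose there from a lower level in DMSO, and at 24 h of CFZ its level did not pass between the lines under any setting used. Of the 5 Pol I genes, 3 had positive and 2 had negative interactions.

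Polr1e (-0.32, adjusted p = 0.0224) lost its call at 24 h with DESeq2 (-0.32), without WT DMSO replicate 1 or 3, WT 24 h replicate 3 or Nrf1-KO 24 h replicate 1 or 2 (-0.297 to -0.265). Polr1a (-0.22, adjusted p = 0.0162) lost it without WT 24 h replicate 1 (-0.19), Nrf1-KO DMSO replicate 1 (-0.16) or Nrf1-KO 24 h replicate 3 (-0.14). With library size alone 17 of the 41 interactions at 24 h were negative in place of 10.

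**Figure D4:**
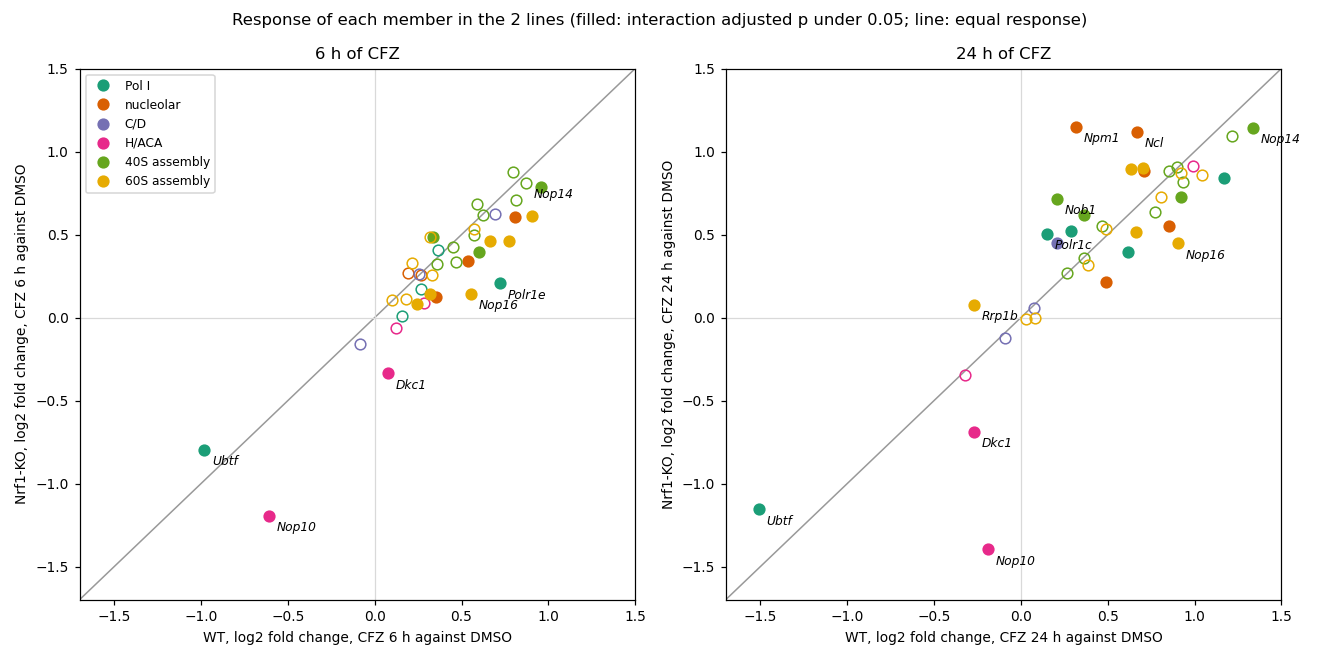
Log2 fold change of CFZ against DMSO in Nrf1-KO (vertical axis) against that in WT (horizontal axis) for each of the 41 genes at 6 h (left) and 24 h (right), coloured by role. Filled points passed the interaction test and the diagonal marks an equal response. At 24 h Npm1 (0.32 in WT, 1.15 in Nrf1-KO) lies farthest above the diagonal, and Nop10 (-0.19 and -1.40) lies farthest below it.

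The other genes of the pathway, 114 in all and none of them among the 41, also rose more often than they fell. In WT 90 rose and 11 fell at 6 h, beside 35.6% and 36.2% of all genes tested. At 24 h 94 rose and 15 fell there, beside 43.2% and 40.5%. In Nrf1-KO 83 rose and 18 fell at 6 h (34.5% and 35% of all genes), and 90 rose and 18 fell at 24 h (44.4% and 41.1%). Of the 44 other large subunit factors 43 rose in WT at 24 h, and of the 33 other small subunit factors 31. The 16 other Pol I genes lay near the shares of all genes, with 8 higher and 5 lower in WT and 8 higher and 7 lower in Nrf1-KO at 24 h. Taf1a, a subunit of the promoter selectivity factor SL1, had the largest rise in WT at 24 h (2.22, adjusted p = 2.62e-17) and Riok3, a kinase associated with 40S precursors, the next (1.97, adjusted p = 5.87e-30). The lowest values were those of Polr2l, a small subunit shared by the nuclear RNA polymerases (-1.15, adjusted p = 2.98e-17), and Pih1d1, a snoRNP assembly cofactor (-1.12, adjusted p = 1.2e-12).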

How the data were processed

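The authors extracted RNA from the 18 samples, made stranded mRNA libraries, sequenced paired reads and used the RNA Express app, which combines STAR and DESeq2. They deposited raw read counts per gene symbol for each library. The versions, genome build, annotation and use of strand in counting were not given in the sources used here. Samples were grouped and numbered by their labels. The study calls the replicates biological, and the p-values cover the spread between these samples of one line each.

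Counts were analysed with edgeR 4.0.16 (R 4.3.3, limma 3.58.1). Genes were kept by filterByExpr (minimum count 10, minimum total 15), which left 11762 of 23420, and scaled by TMM. A quasi-likelihood model of the 6 groups gave 11 comparisons, with Benjamini-Hochberg adjusted p under 0.05 over all genes tested as the threshold and log2 fold changes with standard errors (SE). The common biological coefficient of variation was 3.13%, and totals of 8333148 to 23917081 counts set the precision. Tests were checked on simulated data. The 41 genes, their roles and the other lists were chosen with earlier results of these data known. Genes given in full by a fixed rule were Ncl, Npm1, Fbl, Polr1a and Ubtf, the highest and lowest of each role in WT at 24 h, the highest and lowest interactions at each time and the highest and lowest differences between the lines in DMSO, beside the 2 highest and 2 lowest other pathway genes, and any other gene was named after its values were seen. Alternatives were DESeq2 1.42.0, upper-quartile scaling, library size alone, no expression filter, a mean count of at least 10, a replicate block, the compared groups only, each library left out and a minimum fold of 2. Gene coordinates and shared or overlapping sequence came from GENCODE M21 on GRCm38, and promoters from RefSeq on GRCm38.p6. The authors' build may differ.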

Additional observations from a re-analysis of the deposited data

Results flagged for a closer look

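The response to CFZ differed between Nrf1-KO and WT for 16 of the 41 ribosome biogenesis genes at 6 h and for 22 at 24 h, by the interaction in edgeR's quasi-likelihood test with Benjamini-Hochberg adjustment. Of the 41, 2 had a positive and 14 a negative interaction at 6 h, and 12 and 10 at 24 h. Over all genes tested 19.8% had a positive and 18.4% a negative interaction at 6 h, and 29.7% and 30% at 24 h. With both signs counted, the 41 genes thus differed between the lines about as often as all genes at 6 h. At 24 h they differed no more often than all genes. Values are log2, and positive values mean a more positive response in Nrf1-KO.

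At 6 h the positive interactions were those of Ubtf (0.19) and Nob1 (0.15). Among Pol I and nucleolar genes the negative ones were Polr1e (-0.52), Nolc1 (-0.23), Mybbp1a (-0.20) and Ddx21 (-0.20). In the box H/ACA particle they were Nop10 (-0.58) and Dkc1 (-0.41). In 40S assembly they were Bysl (-0.21) and Tsr1 (-0.17). The 60S assembly genes were Nop16 (-0.41), Grwd1 (-0.32), Gnl3 (-0.29), Nop2 (-0.20), Pes1 (-0.18) and Ebna1bp2 (-0.16).

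At 24 h the positive interactions of Pol I and nucleolar genes were those of Npm1 (0.83), Ncl (0.45), Ubtf (0.35), Polr1c (0.35), Polr1b (0.23) and Ddx21 (0.18). Those of the snoRNP and assembly genes were Nob1 (0.51), Rrp1b (0.35), Wdr43 (0.26), Wdr12 (0.26), Nop56 (0.24) and Nop2 (0.20). The negative interactions were those of Nop10 (-1.21), Nop16 (-0.46), Dkc1 (-0.42), Polr1e (-0.32), Mybbp1a (-0.30), Nolc1 (-0.28), Polr1a (-0.22), Nop14 (-0.19), Utp20 (-0.19) and Nip7 (-0.15). Ddx21 and Nop2 had negative values at 6 h and positive values at 24 h, and both lost the latter call with library size alone (0.10 and 0.12). Those of Utp20 and Nip7 at 24 h lost their call when any 1 of 8 or 9 of the 12 libraries, respectively, was left out. Both also lost it with DESeq2, upper-quartile scaling and the compared groups only, and Nip7 without the expression filter too. That of Polr1b was lost without Nrf1-KO DMSO replicate 3 (0.14), WT DMSO replicate 2 (0.17), Nrf1-KO 24 h replicate 1 (0.20) or WT 24 h replicate 3 (0.22). It was also lost with DESeq2 (0.22) and library size alone (0.15). The call of Ebna1bp2 at 6 h was lost without Nrf1-KO 6 h replicate 1 (-0.13). In DMSO Nop16 was higher and Polr1c lower in Nrf1-KO than in WT. Between the lines under CFZ, Nop16 passed at neither time and Polr1c did not pass at 24 h, under any setting used. Why the responses to CFZ differ was not tested.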

How the results depend on the processing

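Most counts of called genes stayed within 1.5 times their value under the alternatives (291 of 332, with 41 outside), and of the values of single genes given in full 1638 kept their side of the threshold, while 46 passed it newly, 37 lost their call and 30 changed sign. With a minimum fold of 2 the higher and lower counts were 0 and 0 in WT at 6 h, 4 and 1 at 24 h, 0 and 1 in Nrf1-KO at 6 h, 4 and 2 at 24 h, 0 and 0 between the times in each line and between the lines in each treatment, 0 and 0 for the interaction at 6 h and 0 and 1 at 24 h. With library size alone there were 8 lower genes in Nrf1-KO at 24 h, 3 lower between the lines in DMSO, 10 higher at 6 h and 14 lower at 24 h, and 17 negative interactions at 24 h. DESeq2 gave 5 lower genes between the lines in DMSO and 1 positive interaction at 6 h, as did the absence of an expression filter (1). Upper-quartile scaling and the compared groups only each gave 7 higher genes between the lines at 6 h. Leaving out 1 library gave 5 to 12 lower genes between the lines in DMSO and 1 to 3 positive interactions at 6 h.

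Among the genes given in full, the sign changed for values near 0 that were not called. Outside them, called values of Bop1 and Ebna1bp2 changed sign under one or both other scalings, as given above. At 6 h Gar1 in WT was -0.009 and Nhp2 in Nrf1-KO -0.022 with library size alone. Polr1c in Nrf1-KO at 6 h was -0.01 with DESeq2, -0.065 with upper-quartile scaling, -0.103 with library size alone, -0.04 without a filter and -0.023 to 0.065 when 1 library was left out. Rrp1b in Nrf1-KO at 24 h was -0.032 when scaled by the upper quartile and -0.107 by library size alone. The interaction of Ncl at 6 h was 0.028 and 0.013 under the same scalings, that of Nop56 at 6 h -0.018 without a filter and that of Gar1 at 24 h 0.006 with upper-quartile scaling. Without single libraries the ranges were -0.042 to 0.047 for Fbl between the lines in DMSO, -0.079 to 0.011 for its interaction at 24 h, -0.065 to 0.002 for the interaction of Ncl at 6 h, -0.087 to 0.062 for that of Nop56 and -0.05 to 0.016 for that of Gar1 at 24 h. The causes were not tested.

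Samples with the same replicate number showed no shared deviation over all genes tested (correlations -0.0494 to 0.0972 over 45 pairs, mean 0.0136). The labels do not say whether they were handled together, and the correlations cannot settle it. The main model treated the samples as unpaired. With the replicate number as a block 32 of the 41 genes were higher in WT at 24 h in place of 33 and 10 were lower between the lines in DMSO in place of 8, and no count moved by more than 1.5 times.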

Other observations

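Of 9 snoRNP assembly factors 7 rose and 2 fell in WT at 24 h (43.2% and 40.5% of all genes), and 6 rose and 1 fell in Nrf1-KO (44.4% and 41.1%). Znhit3, a box C/D assembly factor, rose by 1.46 (adjusted p = 2.3e-18) in WT and 0.56 (adjusted p = 5.94e-08) in Nrf1-KO, with an interaction of -0.90 (adjusted p = 1.45e-08), all from edgeR's quasi-likelihood test. The 12 exosome genes, which encode the nuclease that trims ribosomal RNA precursors and its helicase, had 5 higher and 5 lower in WT, beside 43.2% and 40.5% of all genes, and 5 higher and 6 lower in Nrf1-KO, beside 44.4% and 41.1%, at 24 h. Dis3, the catalytic subunit, rose by 1.07 and 1.01, and Exosc8, a ring subunit, had log2 fold changes of -0.85 and -1.11. Rrn3, the factor that makes Pol I competent to initiate, rose by 0.64 and 0.63 in WT and by 0.64 and 0.58 in Nrf1-KO. These genes were named after their values were seen.

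Myc, a transcription factor known to act on many ribosome biogenesis genes, stood at 51.3, 56.75 and 46.7 CPM in the DMSO libraries, 123.3, 117.5 and 117.3 at 6 h and 78, 74.9 and 74.5 at 24 h in WT and at 67.1, 67.1 and 60.8 CPM in the DMSO libraries, 171, 169.2 and 171.5 at 6 h and 78.8, 72.7 and 68.7 at 24 h in Nrf1-KO. The 6 h libraries were the highest of each line, without overlap. It rose by 1.21 (adjusted p = 2.66e-19) at 6 h and 0.55 (adjusted p = 1.22e-10) at 24 h in WT, and by 1.40 (adjusted p = 1.7e-21) and 0.18 (adjusted p = 0.00217) in Nrf1-KO. The part of Myc in the changes of the 41 genes was not tested.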
